A study of Mus musculus with 319 samples.

Results

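High-share cells were sorted thymic tuft cells in which mitochondrially encoded genes took 8% to 20% of the gene reads of the well. They were chosen from 1-cell wells with at least 10000 reads on genes and 1000 detected genes, ERCC spike-in reads left out. Of 313 such cells, 88 were high-share cells, which is 28.1% (exact Clopper-Pearson 95% interval 23.2% to 33.4%, for counting error only). By set this percentage ran from 10.4% to 48.4%, so the pooled value describes this mix of sets. The high-share cells were set against the 60 Aire-/-, 41 WT batch 2, 25 WT June29 and 11 WT June5 cells with a share below 4%, called low-share cells here. Another 76 cells lay from 4% to below 8% and 12 lay above 20%. The values next to the limits were 7.93% and 8.27% at the lower limit of the class, 19% and 20.1% at its upper limit, and 3.99% and 4.00% at the limit of the low-share cells. The share that chose the cells is a description and not a result.

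The study sequenced single tuft cells of the mouse thymus that carry Flare25, a reporter allele of the tuft cell cytokine gene Il25. Aire-/- cells came from C57BL/6.Il25.Aire mice of genotype Flare25/Flare25 Aire-/-, which lack the transcriptional regulator Aire, and formed 1 set of 96 wells in batch 2. Wild-type (WT) cells came from C57BL/6.Il25 mice of genotype Flare25/Flare25 and formed 3 sets, 1 of 92 wells in batch 2 and those of June29 (95 wells) and June5 (31 wells, of which 30 passed the limits) in batch 1. All mice were untreated and 6 weeks old, apart from 1 Aire-/- well labelled 5 weeks, and the labels give the sex as mixed. Thymi were digested and pooled, EPCAM+ CD45- CD11c- cells with low MHC class II and reporter signal were sorted 1 to a well, and poly(A) RNA was amplified by Smart-seq2 with ERCC spike-in RNA added. No animals are named, so each set was 1 pool and counted as 1 replicate, and p-values measure the spread between these 4 sets only. Every cell had been kept by its reporter and by its place on the gate, so the cells are a selected part of thymic tuft cells.

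Tuft cells are rare chemosensory epithelial cells that use the signalling chain of taste cells and secrete IL-25 and eicosanoids. In the thymus they are a branch of the medullary epithelium. Mitochondrial DNA encodes core subunits of the respiratory complexes and the ribosomal RNAs of the organelle, and its messenger RNAs carry poly(A) tails, so that oligo(dT) priming recovers them beside nuclear messages. Nuclear genes encode all other parts of the organelle. The share of mitochondrial reads in a well depends on both kinds of RNA, and is widely used as a quality measure of single cells.

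High-share cells carried markers of tuft cells. All 88 had at least 5 reads on 2 or more of 35 tuft genes, and the fewest in any of them was 12. Every cell outside the class met this limit too, so it set no cell apart. The well without a cell in batch 1 also held tuft gene reads, as given below, and was not counted by this limit. The median number of tuft genes reached was 26.5 in Aire-/-, 25 in WT batch 2, 26 in June29 and 25.5 in June5 high-share cells, against 27, 26, 26 and 28 in the low-share cells of these sets. Markers of other cell types were present at varied levels. The 9 markers of the mTEC low list, medullary epithelium with little MHC class II, summed to 492 to 1542 reads per 1000000 non-mitochondrial gene reads (CPM) in the high-share cells of the 4 sets and to 665 to 1799 CPM in low-share cells, and 2 or more of them had 5 reads or more in 47 of 88 high-share cells. B cell markers had summed levels of 98.2 to 312 CPM in high-share cells, against 205 to 431 CPM in low-share cells. The 12 thymocyte markers summed to 1.76 to 87.9 CPM in high-share cells and 6.66 to 63.3 CPM in low-share cells, and Cd3e, Cd4, Cd8a and Rag1 had no read in June5 cells of either class. Counted by cell, 1 of 10 Aire-/-, 1 of 20 WT batch 2, 13 of 46 June29 and 3 of 12 June5 high-share cells had 2 or more markers of 1 haematopoietic list at 5 reads or more, against 13 of 60, 6 of 41, 9 of 25 and 4 of 11 low-share cells. Xist without Y-linked markers was seen in 10 of 10 Aire-/-, 10 of 20 WT batch 2, 0 of 46 June29 and 4 of 12 June5 high-share cells, against 53 of 60, 19 of 41, 0 of 25 and 2 of 11 low-share cells. Y-linked markers alone were seen in 0, 9, 32 and 1 of these high-share cells, against 0, 10, 24 and 8 low-share cells. By these markers the Aire-/- and June29 sets did not show the mixed sex that the labels give. The part of sex in the results was not tested.

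Total gene reads per high-share cell ranged from 88822 to 1671730, and per low-share cell from 83053 to 2927690. Of the wells with a single cell, 1 failed the limits. No 2 wells held identical counts. The well without a cell in batch 1 held 9892 gene reads against 3272929 ERCC reads, and mitochondrial genes took 7.30% of those gene reads. In that well 2638 genes were detected, and the tuft genes summed to 24427.5 CPM. The wells without a cell in batch 2 were not analysed here. A separate table of scores that the authors deposited lists 76 of the 88 high-share cells, 36 of the 46 in June29, every low-share cell and 4 of the 12 cells above 20%.

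The class was unevenly spread over the sets. High-share cells were 10 of 96 Aire-/- cells (10.4%, exact 95% interval 5.11% to 18.3%), 20 of 92 WT batch 2 cells (21.7%, 13.8% to 31.6%), 46 of 95 June29 cells (48.4%, 38% to 58.9%) and 12 of 30 June5 cells (40%, 22.7% to 59.4%). Both batch 1 sets had a larger share than both batch 2 sets. The deposited labels also carry a code headed Batch that divides the wells otherwise than batch 1 and batch 2 here, and does not name plates. June29 had code 3, June5 code 4, and the batch 2 sets codes 1 and 2. High-share cells were 5 of 48 Aire-/- and 9 of 48 WT batch 2 cells under code 1. They were 5 of 48 and 11 of 44 under code 2. There was 1 pool of Aire-/- cells, so genotype, pool and the sex markers given above cannot be told apart, and no test was made. These intervals cover counting error only.

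Nuclear copies of mitochondrial genes also held reads. The nuclear genome holds copies of mitochondrial DNA, and reads from the 2 can be told apart only where the letters differ. How the authors treated reads that match several places is not given in the sources used here. mt-Atp6, mt-Atp8 and mt-Co2 were listed at 0 in every set, and mt-Co3 had at most 0.000722% of the reads of mitochondrial genes in any set and class. The nuclear pseudogenes Gm10925 (chr1:24613974-24614651), Gm28437 (chr1:24613189-24613971) and Gm28661 (chr1:24614885-24615565), all on the minus strand of GRCm38, matched mt-Atp6 over 678 bases, mt-Co3 over 783 bases and mt-Co2 over 681 bases with 0 mismatches. Gm29216 (chr1:24615706-24616197) differed from the end of mt-Co1 at 6 of 492 bases, and Gm13340 (chr2:22588103-22589647) from the whole of mt-Co1 at 37 of 1545 bases. The stretches below show where the copies do and do not differ. They are GENCODE transcript sequences on GRCm38, read 5′ to 3′, and capitals mark letters that differ within a pair. The pair of mt-Atp6 and Gm10925 is identical over the 60 bases shown, and the 6 letters that tell Gm29216 from mt-Co1 lie together at the start of the copy, while Gm13340 differs at 2 of the 60 bases shown.
Gm10925, chr1:24614283-24614342, minus strand: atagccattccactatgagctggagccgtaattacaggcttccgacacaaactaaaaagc
mt-Atp6, chrM:8236-8295, plus strand: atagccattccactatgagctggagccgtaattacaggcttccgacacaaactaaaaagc
Gm29216, chr1:24616138-24616197, minus strand: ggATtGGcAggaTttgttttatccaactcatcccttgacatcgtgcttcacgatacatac
mt-Co1, chrM:6381-6440, plus strand: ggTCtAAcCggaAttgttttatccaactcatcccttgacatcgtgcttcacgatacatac
Gm13340, chr2:22588773-22588832, minus strand: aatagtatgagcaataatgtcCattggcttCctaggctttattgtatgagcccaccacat
mt-Co1, chrM:6143-6202, plus strand: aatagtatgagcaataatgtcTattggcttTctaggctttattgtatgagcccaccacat

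Of the genes tested, 9 pseudogenes shared at least 20% of their words of 31 bases with mitochondrial transcripts. Other nuclear copies were not searched, so words absent from these 9 may occur elsewhere in the nuclear genome. Together the 9 pseudogenes held 100% of the words of mt-Co2, 99.9% of mt-Co3, 99.5% of mt-Atp6, 98.1% of mt-Nd3, 63.6% of mt-Co1, 13.5% of mt-Nd2, 12.8% of mt-Nd5 and 7.47% of mt-Atp8. These pseudogenes held none of the words of mt-Cytb, mt-Nd1, mt-Nd4, mt-Nd4l, mt-Nd6, mt-Rnr1 or mt-Rnr2. They took a median of 5.50%, 5.82%, 7.90% and 8.01% of non-mitochondrial gene reads in Aire-/-, WT batch 2, June29 and June5 high-share cells, against 1.35%, 1.48%, 1.77% and 1.93% in low-share cells. Set over the reads of mitochondrial genes in the same cell, these pseudogene reads came to a median of 46.1%, 47.8%, 56.3% and 48.4% in high-share cells and 47.5%, 48.4%, 59.9% and 53.96% in low-share cells. The pseudogenes moved with the genes of the rule at a like ratio in both classes, so their levels are given as a description. Counted together, mitochondrial genes and these pseudogenes took a median of 14.3%, 15.8%, 20.4% and 20.4% of gene reads in high-share cells, against 4.03%, 4.23%, 4.50% and 4.90% in low-share cells.

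Set against the spike-in, the 2 parts of the share differed unequally between the classes. The share is made of these quantities, so the next values describe it and carry no test. Non-mitochondrial gene reads per ERCC read had a median of 0.802 in Aire-/-, 0.520 in WT batch 2, 1.49 in June29 and 0.839 in June5 high-share cells, against 2.59, 2.21, 6.00 and 3.48 in low-share cells. The high-share medians were 3.27-, 4.25-, 4.03- and 4.16-fold lower, and the mean log2 difference over the 4 sets was -1.97 (SD 0.17). Reads of mitochondrial genes per ERCC read had a median of 0.0907, 0.0672, 0.228 and 0.152 in these high-share cells, against 0.0701, 0.0632, 0.175 and 0.0869 in low-share cells. That is 1.29-, 1.06-, 1.30- and 1.75-fold higher, a mean log2 difference of 0.41 (SD 0.30). In size, the difference in nuclear RNA reads per ERCC read was the larger in each set.

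High-share cells lay lower in the nuclear part, with overlap between the classes. In Aire-/- 8 of 10, in WT batch 2 12 of 20, in June29 41 of 46 and in June5 8 of 12 high-share cells lay below every low-share cell of the set. In no set did a low-share cell lie below the median high-share cell. Exceptions on the high side existed: 1 June29 high-share cell reached 8.83 and 1 Aire-/- cell 3.02 non-mitochondrial reads per ERCC read. The amount of ERCC RNA per well is not given in the sources used here, so a low ratio cannot be told apart from more spike-in or weaker capture of cellular RNA, and less RNA per cell and a lost part of a cell cannot be told apart.

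**Figure D1:**
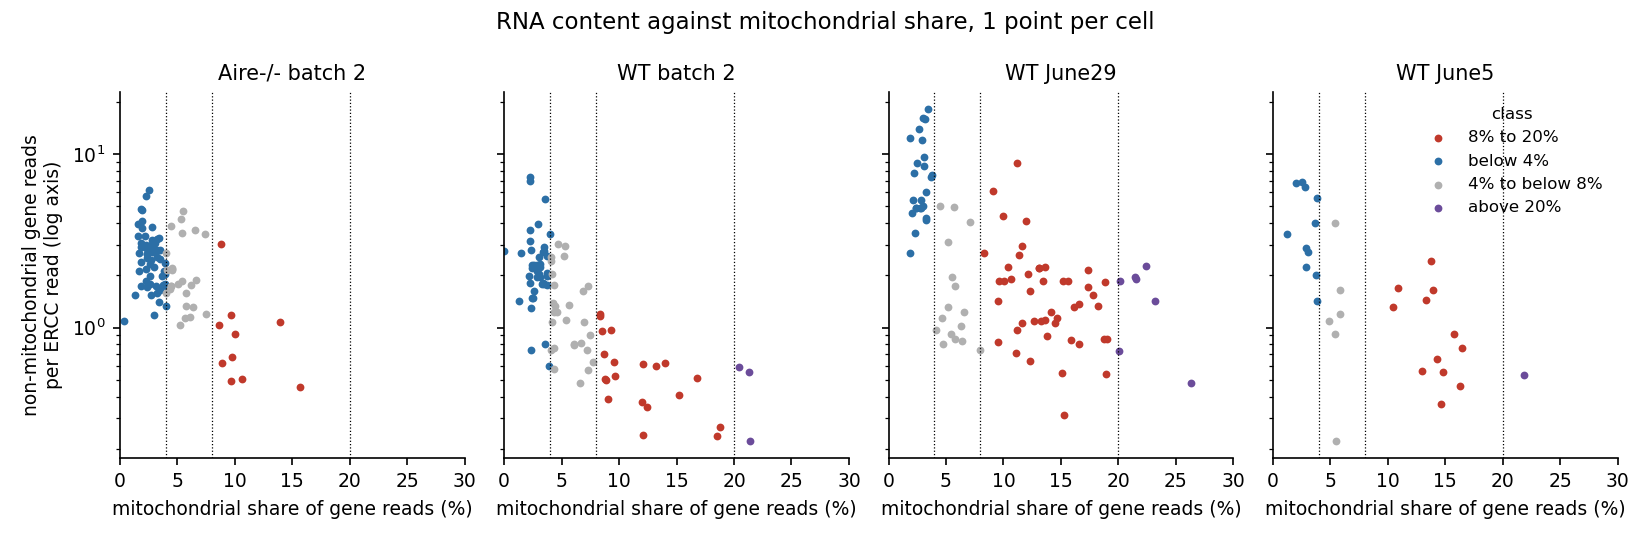
Non-mitochondrial gene reads per ERCC read (log axis) against the percentage of gene reads from mitochondrial genes, 1 point per cell and 1 panel per set. Dotted lines mark 4%, 8% and 20%, and red points, the high-share cells, lie mostly below blue points, the low-share cells.

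**Figure D2:**
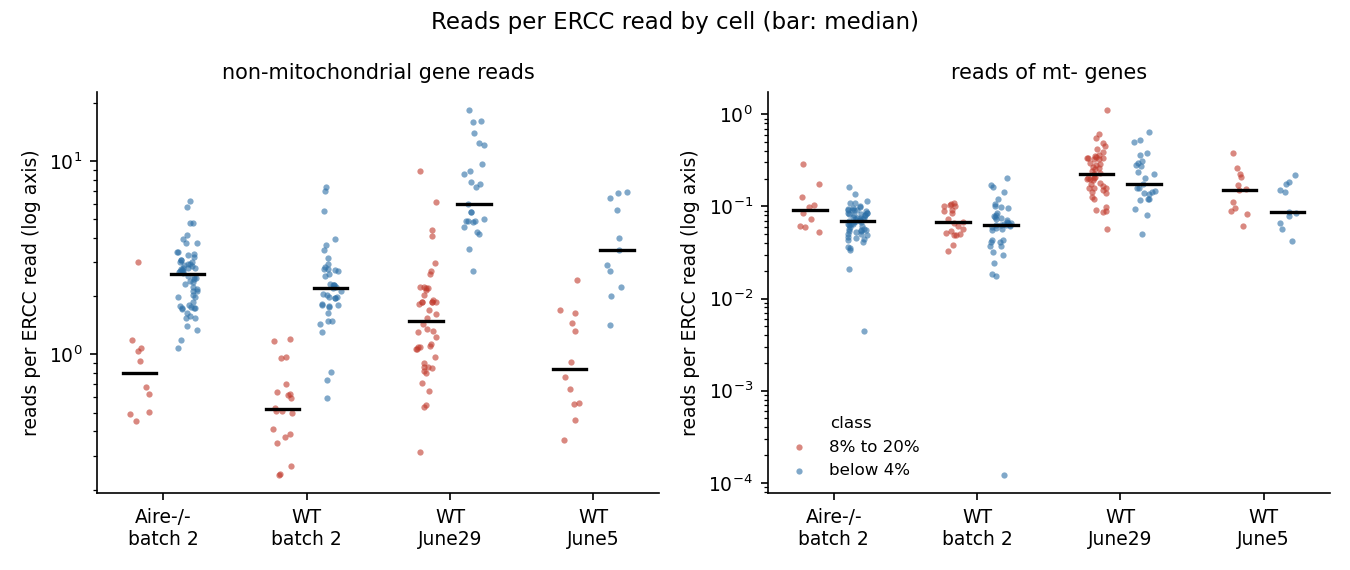
Reads per ERCC read by set (log axis), for non-mitochondrial genes on the left and for mitochondrial genes on the right, with 1 point per cell and a bar at the median. In June5 the medians were 0.839 in high-share and 3.48 in low-share cells on the left, and 0.152 and 0.0869 on the right.

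Within the high-share cells, the mitochondrial share was set against non-mitochondrial gene reads per ERCC read. Spearman's rank correlation was -0.48 over 10 Aire-/-, -0.63 over 20 WT batch 2, -0.43 over 46 June29 and -0.52 over 12 June5 high-share cells. Cells of 1 set came from 1 pool, and the quantities have a common part. With mitochondrial reads per ERCC read the share had rank correlations of -0.13, -0.08, 0.02 and -0.32 in the same cells. The share is computed from both quantities, so these values are a description.

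Fewer genes were seen in high-share cells. Detected genes per cell had a median of 3807 in Aire-/-, 3514.5 in WT batch 2, 4720 in June29 and 4086.5 in June5 high-share cells, against 4632.5, 4415, 6455 and 6147 in low-share cells. After each cell was thinned to 213846 non-mitochondrial reads, which 7 of 10 Aire-/-, 13 of 20 WT batch 2, 45 of 46 June29 and 7 of 12 June5 high-share cells and 52 of 60, 40 of 41, 25 of 25 and 11 of 11 low-share cells reached, the medians were 3625, 3473, 3327 and 4067 in high-share cells and 4065, 3765.5, 5046 and 5087 in low-share cells. These reads include the 9 pseudogenes and CT010467.1, an entry annotated as ribosomal RNA, which took a larger part in high-share cells. With both left out and each cell thinned to 163637 of its remaining reads (a setting chosen after the data were seen), the medians were 3667, 3504.5, 3261 and 3604 genes in high-share cells and 3962.5, 3676, 4954 and 4983 in low-share cells. WT batch 2 had the smallest difference. Each difference in genes was negative in 4 of 4 sets, where the exact two-sided sign-flip permutation test gave 0.13, the smallest p that 4 sets allow. The 50 most abundant genes of a cell took a median of 42.6%, 41.8%, 41.1% and 40.2% of its non-mitochondrial reads in high-share cells, against 25.6%, 23.4%, 23.2% and 25.4% in low-share cells. Most of that gap was reads of the pseudogenes and CT010467.1, and with these left out the values were 22.2%, 22.3%, 24.9% and 23.3% in high-share cells and 19.6%, 19%, 20.1% and 19.5% in low-share cells. The Tas2r genes, bitter taste receptors of which single cells express changing subsets, were detected at a median of 2, 2, 2 and 4 per thinned high-share cell and 3, 3.5, 6 and 6 per thinned low-share cell.

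Among the mitochondrial genes themselves, the mix of reads was close in both classes. The large ribosomal RNA mt-Rnr2 (chrM:1094-2675) took the greatest part, 46.8%, 46.9%, 40.3% and 43.4% of mitochondrial reads summed over high-share cells of Aire-/-, WT batch 2, June29 and June5, against 43.6%, 43.7%, 34.2% and 39.7% over low-share cells. It was higher in 4 of 4 sets, with a mean share of 44.3% ± 3.17 in high-share cells and 40.3% ± 4.51 in low-share cells (SD, n = 4 sets). mt-Cytb, the subunit of complex III, was lower in 4 of 4 sets, at 13.4%, 12.3%, 19.5% and 14.1% against 14.5%, 14.1%, 24.5% and 16.5%.

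mt-Nd1 of complex I was also lower in 4 of 4 sets, at 5.69%, 6.37%, 7.91% and 7.56% in high-share cells against 6.28%, 7.35%, 8.61% and 7.69% in low-share cells. mt-Co1, a catalytic subunit of complex IV, took 19.9%, 17.8%, 16.04% and 17.2% in high-share cells against 19.8%, 20.0%, 17.04% and 20.2% in low-share cells. mt-Nd4 had a higher share in 3 of 4 sets and mt-Nd5 in 1 of 4, while mt-Nd2, mt-Nd4l and mt-Nd6 were higher in 2 of 4. Summed over a class, both ribosomal RNAs together took 51.9%, 52.7%, 45.9% and 48.9% in high-share cells against 49.3%, 48.4%, 39.1% and 44.6% in low-share cells. The median over cells gave another order, with 46.9%, 50.0%, 42.8% and 51.1% in high-share cells and 49.6%, 51.2%, 38.8% and 43.5% in low-share cells, higher in both batch 1 sets and lower in both batch 2 sets (exact sign-flip p = 0.5).

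**Figure D3:**
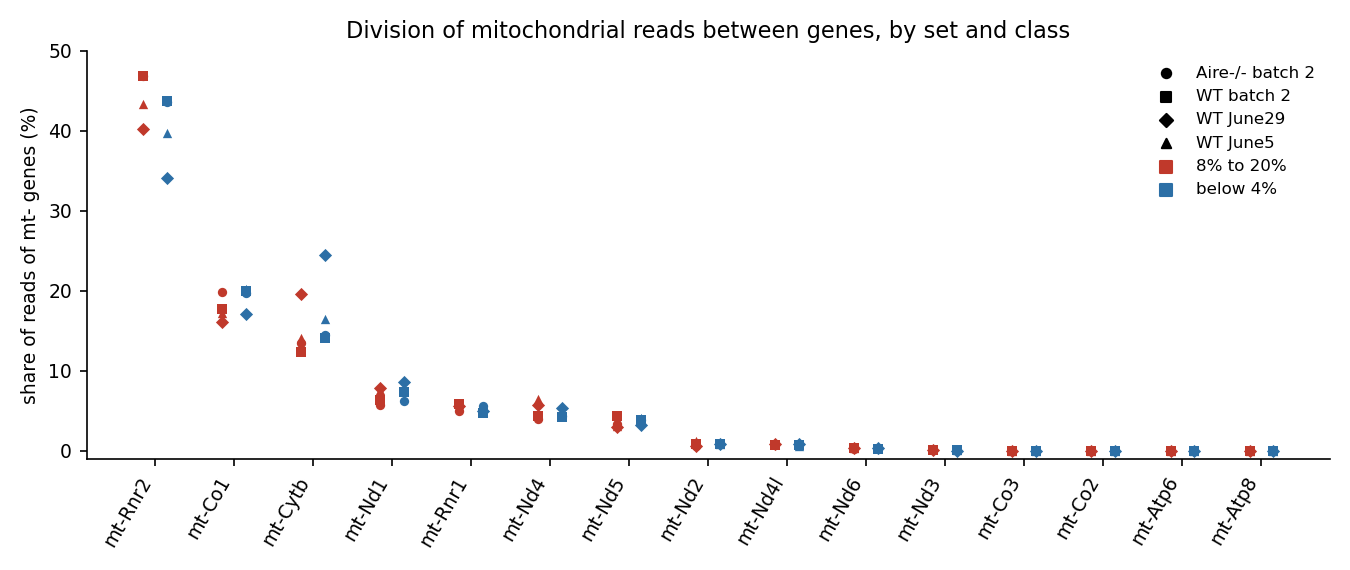
Percentage of the reads of mitochondrial genes taken by each gene, summed over high-share cells (red) and low-share cells (blue) of each set, 1 symbol per set. mt-Rnr2 was higher and mt-Cytb lower in high-share cells of 4 of 4 sets, and mt-Atp6, mt-Atp8 and mt-Co2 are listed at 0.

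Nuclear genes were compared by edgeR's quasi-likelihood test on counts summed per set and class, with the set as a block, TMM scaling and no mitochondrial genes. Of 8932 genes tested, 15 rose in high-share cells (0.168%) and 6 fell (0.0672%) at a Benjamini-Hochberg adjusted p of 0.05 or less. With no TMM factors 11 rose and 17 fell, and DESeq2 called 620 higher and 960 lower. Without adjustment, 1448 genes had p of 0.05 or less, 618 of them higher and 830 lower. The median log2 fold of all genes was -0.37, and -0.77 with no TMM factors, so each fold below is to be read against that shift. Levels below are in CPM of the summed counts with no TMM factors, while folds and directions by set include them. Where class sums are said not to overlap, this is a description. The share of all genes without overlap was not counted. The direction was the same in 4 of 4 sets for 1159 genes that were higher (13%) and 1620 that were lower (18.1%). Of the 15 that rose, 6 were the pseudogene copies described above and are no independent result.

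A pair of RNAs that stay in the nucleus rose. Malat1 (chr19:5795690-5802672), a long noncoding RNA of nuclear speckles, had 9755, 18894, 29110 and 22676 CPM in summed Aire-/-, WT batch 2, June29 and June5 high-share cells, against 3989, 4389, 8220 and 4508 CPM in low-share cells. The class sums did not overlap over the sets, and the log2 fold was 2.29 ± 0.20 (SE, edgeR adjusted p = 0.0121). Neat1 (chr19:5824708-5845478), the scaffold RNA of paraspeckles, had 1632, 2413, 2925 and 4230 CPM in high-share cells against 697, 534, 1024 and 851 CPM in low-share cells, a log2 fold of 2.20 ± 0.25 (edgeR adjusted p = 0.0352). Both were higher in 4 of 4 sets.

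Of the other nuclear-retained RNAs on the list, none passed. Kcnq1ot1, an imprinted antisense RNA that stays on chromatin, had 291, 314, 339 and 345 CPM in high-share cells and 44.5, 79.1, 277 and 84.7 CPM in low-share cells (log2 fold 2.17, edgeR adjusted p = 0.116). Xist, the RNA that coats the inactive X chromosome, is not on the list and was added after its values were seen. Xist had 1311, 622, 0.0523 and 2243 CPM against 373, 104.1, 0 and 97.1 CPM (log2 fold 3.34, edgeR adjusted p = 0.0887), where the sex markers given above differ between the June5 classes. Of the 13 RNAs on the list 7 were tested. In 4 of 4 sets 3 were higher (42.9%) and 0 lower, against 13% and 18.1% of all genes. Malat1 and Neat1, given above, are 2 of these 3. The median log2 fold of the 7 was 2.17. It was 0.77 in the mean of per-cell log2 values, 0.91 in batch 2 cells with 0.5 to 2 nuclear reads per ERCC read and -0.09 per ERCC read. Cells between the classes had intermediate Malat1 levels. Median Malat1 levels in cells below 4%, from 4% to below 8% and from 8% to 20% were 3286, 5707 and 10707 CPM in Aire-/-, 3915, 8754 and 20576 CPM in WT batch 2, 7399, 20024 and 25036 CPM in June29 and 3442, 11050 and 24448 CPM in June5. Above 20% they were 20965 CPM in WT batch 2, 15531 CPM in June29 and 33219 CPM in June5, so June29 fell back. Neat1 medians kept this order over the first bands in each WT set but not in Aire-/-, at 648, 459 and 1521 CPM.

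Reads of nuclear ribosomal RNA also took a larger part in high-share cells. CT010467.1 (chr17:39846353-39848827, minus strand), an entry annotated as ribosomal RNA, took a median of 25.8%, 17.5%, 16.8% and 16.9% of non-mitochondrial reads in high-share cells of Aire-/-, WT batch 2, June29 and June5, against 7.52%, 4.50%, 3.11% and 5.17% in low-share cells. Its log2 fold was 2.21 ± 0.21 (edgeR adjusted p = 0.0186), with 4 of 4 sets higher. Gm26917, an annotated long noncoding RNA that lies next to it (chr17:39843013-39846341, plus strand), had 827, 554, 3630 and 1892 CPM in high-share cells against 129.1, 67.7, 361 and 275 CPM in low-share cells, a log2 fold of 3.35 ± 0.24 (edgeR adjusted p = 0.0045). Its transcript shares no word of 31 bases with CT010467.1 (0%), and 66.7% of the words of CT010467.1 occur in other genes of the annotation, so reads of this entry are uncertain in origin.

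A further 5 genes rose. Ahnak2 (chr12:112772194-112802657), which encodes a giant scaffold protein, had 1282, 2176, 3348 and 3643 CPM in high-share cells against 577, 498, 624 and 730 CPM in low-share cells (log2 fold 2.41 ± 0.27, edgeR adjusted p = 0.0375). Itpr2 (chr6:146108299-146502223), the inositol trisphosphate receptor that releases calcium from the endoplasmic reticulum, had 953, 1268, 1950 and 1305 CPM against 257, 292, 365 and 498 CPM (2.35 ± 0.26, edgeR adjusted p = 0.0352). Ptpn18, a tyrosine phosphatase, had 2106, 1706, 1410 and 1450 CPM against 725, 613, 362 and 681 CPM (1.91 ± 0.23, edgeR adjusted p = 0.0406). Fryl (2.39 ± 0.29, edgeR adjusted p = 0.0406) and Gm19817 (2.95 ± 0.34, edgeR adjusted p = 0.0377), a transcript that GENCODE places in its class of loci awaiting experimental evidence, had a higher level in high-share cells of 4 of 4 sets.

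High-share cells had lower levels of 6 genes that passed. Tmem59 (chr4:107178399-107200996), a membrane protein of the Golgi and endosomes, had 122.8, 89.7, 80.3 and 102.1 CPM in high-share cells of Aire-/-, WT batch 2, June29 and June5, against 629, 824, 784 and 807 CPM in low-share cells (log2 fold -2.56 ± 0.28, edgeR adjusted p = 0.0352). Pdia3 (chr2:121413775-121438687), the disulfide isomerase of glycoprotein and MHC class I folding, had 66.5, 99.6, 170.98 and 95.6 CPM against 583, 523, 1063 and 779 CPM (-2.40 ± 0.28, edgeR adjusted p = 0.0377). Hepacam2 (chr6:3457096-3498298), an immunoglobulin superfamily membrane protein, had 201, 171.9, 291 and 175.1 CPM against 1191, 1271, 1323 and 1856 CPM (-2.36 ± 0.29, edgeR adjusted p = 0.0406). In all 6 genes, those below included, the highest high-share set lay below the lowest low-share set. They were called by the same sums, so this is no separate result.

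Itm2b (chr14:73362226-73385289), a type II membrane protein, had 557, 446, 438 and 335 CPM in high-share cells against 2517, 2624, 1991 and 1867 CPM in low-share cells (-1.95 ± 0.20, edgeR adjusted p = 0.0274). Cnn3, an actin-binding calponin, had 256.3, 276, 194 and 330 CPM against 996, 1168, 929 and 1332 CPM (-1.68 ± 0.21, edgeR adjusted p = 0.0457). Cmpk1, the pyrimidine nucleoside monophosphate kinase, had 16.6, 20.3, 20.7 and 15.3 CPM against 447, 339, 275 and 153.8 CPM (-3.57 ± 0.42, edgeR adjusted p = 0.0377). The next genes in order of p did not pass: Eef1a1, the translation elongation factor, had a log2 fold of -1.78 (edgeR adjusted p = 0.0584), Mdh2, the malate dehydrogenase of the mitochondrial matrix, of -1.90 (0.0616), and Atp5a1, the alpha subunit of ATP synthase, of -1.75 (0.0666).

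**Figure D4:**
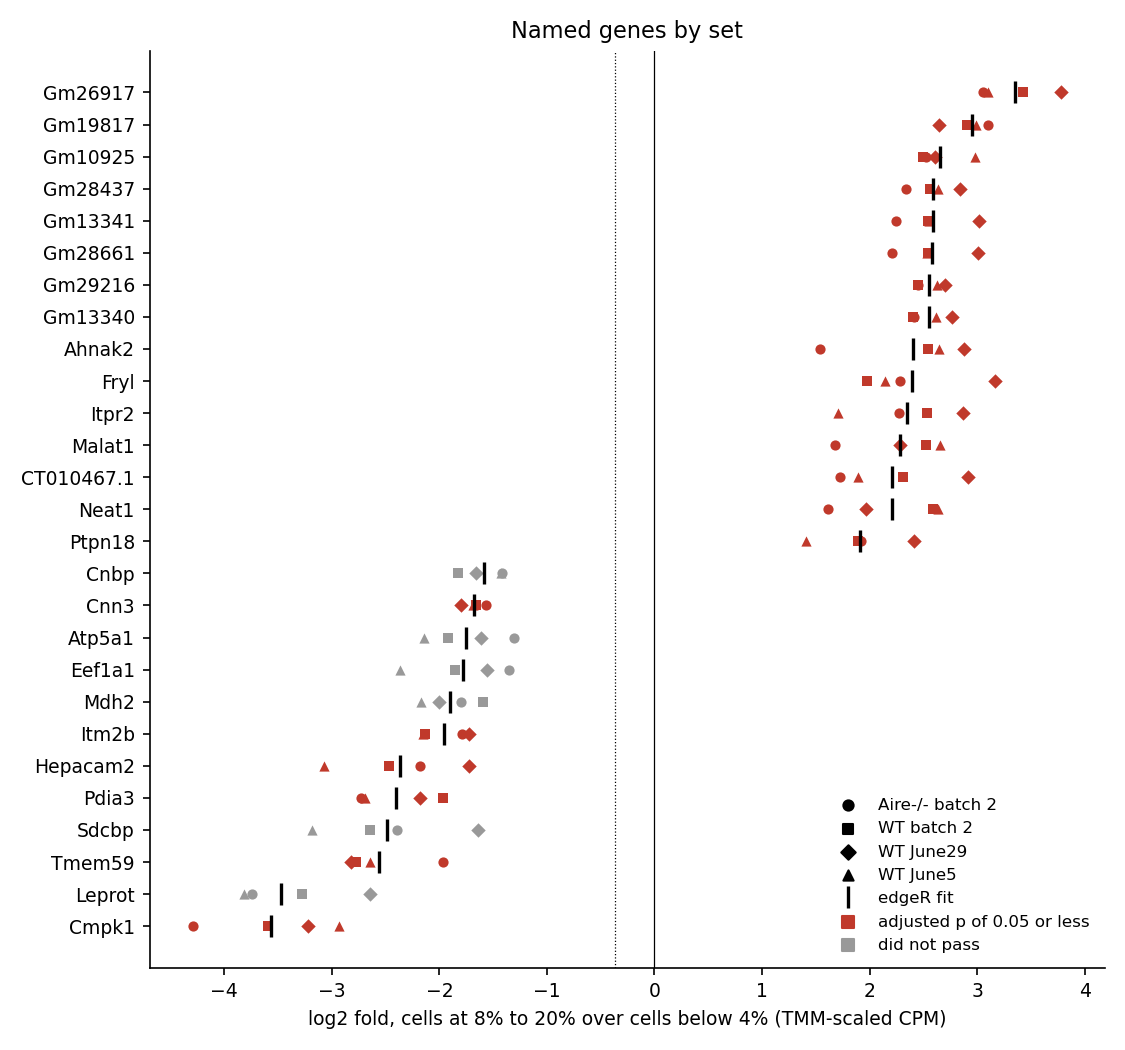
Log2 fold of high-share over low-share cells per set (symbols, TMM-scaled CPM) and in the edgeR fit (bars), with genes at an adjusted p of 0.05 or less in red and the median of all genes, -0.37, dotted. All symbols of a gene lie on 1 side of 0, but per ERCC read Neat1 (-0.07), CT010467.1 (-0.06) and Ptpn18 (-0.36) turn to the lower side.

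These calls rest on few sets. With the 9 pseudogenes and CT010467.1 left out of the fit, the log2 folds of the other named genes hardly moved, but only Gm26917 passed (edgeR adjusted p = 0.0310), with Malat1 at an adjusted p of 0.0621 and Itm2b at 0.0747. With haematopoietic-marked cells left out, 11 genes rose and 0 fell. Without WT batch 2 no gene passed by edgeR (957 at an unadjusted p of 0.05 or less), and without June5, June29 or the Aire-/- set 5, 8 and 8 genes rose and 0 fell. Within batch 2 alone 5 genes rose and 0 fell, and within batch 1 alone 0 passed (880 at an unadjusted p of 0.05 or less). Without the cell that held most of its reads in the higher class only Gm26917, Malat1, Itm2b and the 6 pseudogenes still passed.

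Scaling by the spike-in in place of gene reads divided the genes in another way. Per ERCC read the median gene was lower by a log2 fold of -2.65, and 3777 genes fell while 8 rose (edgeR, scaling chosen after the data were seen). Malat1 was then at 0.01 (edgeR adjusted p = 0.958), Neat1 at -0.07 (0.850), CT010467.1 at -0.06 (0.761) and Ptpn18 at -0.36 (0.287). These 4 RNAs did not pass on that scale, and neither did Ahnak2 (0.13), Itpr2 (0.08) and Fryl (0.13). Gm26917 passed on both scales, with a log2 fold of 1.08 ± 0.26 per ERCC read (edgeR adjusted p = 0.0206). All 6 genes that fell passed on both, with log2 folds of -3.95 to -5.84 per ERCC read. On that scale 3777 of 8932 genes fell, so their passing there is no separate support.

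A group of loci with shared repeat sequence stood out per ERCC read and was chosen after its values were seen. Gm10800 and Gm10801 (chr2:98666547-98667301 and chr2:98662237-98664083), Gm26870, Gm10717 and Gm10719 (within chr9:3000282-3038313) and Gm21738 (chr14:19415857-19418930) were among the 8 genes that rose per ERCC read, with log2 folds of 4.41 to 7.05, and did not pass in the TMM fit. They reached the limit on low counts through their high-share sums, so these folds are a description. Words of 15 bases in these transcripts occurred in another of the 6, on either strand, for 60.2% to 96.3% of words, so reads cannot be assigned to a single locus, and the group is given as a sum. The remaining gene that rose per ERCC read besides Gm26917 was Gm6211 (log2 fold 5.48).

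The summed loci were over 100 CPM in 56 of 88 high-share cells (63.6%) and in 4 low-share cells (2.92%). By set they were over that level in 4 of 10 Aire-/-, 7 of 20 WT batch 2, 37 of 46 June29 and 8 of 12 June5 high-share cells, against 0 of 60, 0 of 41, 4 of 25 and 0 of 11 low-share cells. Of cells from 4% to below 8%, 3 of 26, 6 of 28, 12 of 16 and 3 of 6 were over 100 CPM, and of cells above 20%, 0 of 3 in WT batch 2, 8 of 8 in June29 and 0 of 1 in June5. Summed levels were 2310, 776, 19122 and 3177 CPM in high-share cells, 46.2, 224, 22466 and 1010 CPM in cells from 4% to below 8%, and 6.17, 2.05, 3424 and 1.75 CPM in low-share cells. In June29 the cells from 4% to below 8% thus had the higher sum of these loci. A few cells held much of this: the top cell gave 79.2%, 37.2%, 25.9% and 52% of the reads of the high-share cells in each set. Levels in June29 were the highest in both classes.

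Nuclear genes of the respiratory complexes had 0 genes that passed, and the shares below are to be read against 13% of all genes that were higher and 18.1% that were lower in 4 of 4 sets. Of 37 tested genes of complex I, 9 were higher (24.3%) and 9 lower (24.3%) in 4 of 4 sets, with a median log2 fold of -0.12. The 4 genes of complex II, Sdha to Sdhd, had a median of -0.94 with 0 higher and 3 lower in 4 of 4 sets. Complex III had a median of -0.17, with 3 of 9 genes higher and 2 lower, and complex IV of 0.03, with 2 of 11 higher and 1 lower. Complex IV was at -0.37 with no TMM factors, where all genes were at -0.77. The medians of complexes I, III and IV lay above that of all genes, -0.37, and that of complex II below it. In the mean of per-cell log2 values, which is not at equal depth, complexes I to IV were at -2.20, -3.01, -2.51 and -1.91. All lay below the -0.71 of all genes. In sums of cells thinned to equal depth they were at -0.31, -1.02, -0.16 and 0.003, against -0.49 for all genes. The place of complexes I, III and IV against all genes thus depended on the scale used.

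Genes of ATP synthase were split by direction in the summed counts. Atp5b, the catalytic beta subunit, had 915, 672, 542 and 1026 CPM in high-share cells of Aire-/-, WT batch 2, June29 and June5, against 2743, 2368, 1394 and 2588 CPM in low-share cells, and its groups did not overlap, but it did not pass (log2 fold -1.13, edgeR adjusted p = 0.0923). Atp5d, the delta subunit of the same F1 part, had 325, 544, 240 and 498 CPM against 374, 448, 197 and 337 CPM (log2 fold 0.63, edgeR adjusted p = 0.290). Over the list of 16 genes 5 were higher (31.3%) and 6 lower (37.5%) in 4 of 4 sets, and the median was -0.19. Per cell, the list summed to a median of 1991, 2896, 1603 and 3174.5 CPM in high-share cells. In low-share cells it was 6475, 6401, 3974 and 6151 CPM, so the level was lower in 4 of 4 sets. In the mean of per-cell log2 values the median fold was -2.27, against -0.71 for all genes. High-share wells held fewer reads, and these per-cell values are not at equal depth. In sums of cells thinned to equal depth the median fold was -0.11, against -0.49 for all genes. The place of the list against all genes thus depended on the scale used.

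Matrix metabolism lay below the median of all genes. All 18 tested genes of the tricarboxylic acid cycle had a negative log2 fold, as did 5326 of the 8932 genes tested, 7 were lower (38.9%) and 0 higher in 4 of 4 sets, and the median was -1.22, with 0 passing. Mdh2 had 145.7, 131.6, 116.6 and 101.9 CPM in high-share cells against 667, 534, 646 and 576 CPM in low-share cells, with no overlap. Fatty acid oxidation had a median of -1.44 over 17 genes, with 5 lower (29.4%) and 1 higher in 4 of 4 sets, and mitochondrial ribosomal proteins -0.52 over 68 genes, with 18 lower (26.5%) and 4 higher (5.88%). These shares compare with 18.1% lower and 13% higher of all genes. Import and chaperone genes of the organelle were at -0.90 over 24 genes and glycolysis at -0.69 over 15, where 4 were lower (26.7%) and 0 higher in 4 of 4 sets.

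Endoplasmic reticulum chaperones were at a median of -0.96 over 17 genes, with 8 lower (47.1%) and 0 higher in 4 of 4 sets, and Pdia3 was the 1 that passed. Hspa5, the BiP chaperone, had 428, 150, 419 and 284 CPM in high-share cells against 741, 910, 1363 and 1418 CPM in low-share cells (log2 fold -1.46, edgeR adjusted p = 0.144). MHC class II genes stood at a median of -1.17 over 8 genes, with 4 lower in 4 of 4 sets. Cd74, the invariant chain, had 408, 221, 419 and 94.6 CPM against 2925, 684, 1163 and 347 CPM (log2 fold -1.55, edgeR adjusted p = 0.106). The low-share cells of the Aire-/- set were the highest of the 8 sums.

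Cytosolic ribosomal proteins had another sign by the scale used. Of 75 tested genes, 38 were higher and 2 lower in 4 of 4 sets, which is 50.7% against 13% and 2.67% against 18.1% of all genes, and the median log2 fold was 0.45 with 0 passing. In CPM without TMM factors their summed level was 15154, 18046, 7932 and 12241 in high-share cells of Aire-/-, WT batch 2, June29 and June5, against 18644, 19243, 8326 and 10373 in low-share cells, lower in 3 of 4 sets. The median fold was 0.06 with no TMM factors, -0.82 in the mean of per-cell log2 values and -1.82 per ERCC read, so the direction depended on the scaling. Fau had 490, 675, 293 and 647 CPM in high-share cells against 437, 456, 236 and 264 CPM in low-share cells (log2 fold 0.98, edgeR adjusted p = 0.174). Rpl4, which encodes a protein of the large subunit, differed the other way, at 362, 319, 282 and 222 CPM against 827, 738, 738 and 548 CPM (log2 fold -0.88, edgeR adjusted p = 0.151).

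The tuft cell programme was present in both classes, while its genes differed by log2 folds of -2.70 to 2.87. Over the 35 tuft genes the median log2 fold was 0.31, with 13 higher (37.1%) and 6 lower (17.1%) in 4 of 4 sets, against 13% and 18.1% of all genes, and 0 passing, but -0.09 with no TMM factors. Their summed level per cell had a median of 38940, 37524, 33547 and 33511 CPM in high-share cells of Aire-/-, WT batch 2, June29 and June5, against 41688, 39833, 44462 and 49078 CPM in low-share cells. It was lower in 4 of 4 sets (exact sign-flip p = 0.13). The reads it is set over include CT010467.1 and the pseudogenes, which took a larger part in high-share cells.

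Single tuft genes differed in direction. Sh2d6, a signalling adaptor enriched in tuft cells, had 3718, 4023, 2278 and 2601 CPM in high-share cells against 1357, 1691, 602 and 1788 CPM in low-share cells (log2 fold 1.69, edgeR adjusted p = 0.0860), with no overlap between the classes. Trpm5, the cation channel of taste transduction, had 2055, 3367, 3410 and 3700 CPM against 1978, 2246, 1639 and 3387 CPM (log2 fold 0.85, edgeR adjusted p = 0.172). Gnat3, the taste G protein gustducin, had 407, 935, 424 and 612 CPM against 1708, 2092, 2300 and 1155 CPM (log2 fold -1.25, edgeR adjusted p = 0.144).

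Il25, whose reporter was the sorting marker, and the regulator Pou2f3 did not pass either. Il25 had 109.2, 93.6, 49.8 and 51.7 CPM in high-share cells and 103.1, 75.3, 45.4 and 96.8 CPM in low-share cells (log2 fold 0.31, edgeR adjusted p = 0.786). Pou2f3, the transcription factor required for tuft cells, had 293, 371, 250 and 408 CPM against 513, 525, 359 and 480 CPM (log2 fold -0.12, edgeR adjusted p = 0.831). Both were seen with 5 reads or more in fewer high-share cells than low-share cells of each set, Il25 in 30%, 45%, 30.4% and 33.3% against 65%, 58.5%, 56% and 90.9%. High-share wells held fewer reads, and these shares are not at equal depth.

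No gene of the stress and death lists passed. Over 18 immediate early and dissociation genes the median log2 fold was 0.52, with 6 higher (33.3%) and 1 lower (5.56%) in 4 of 4 sets, against 13% and 18.1% of all genes. By set it was 0.36 in Aire-/-, 0.62 in WT batch 2, 0.27 in June29 and 1.43 in June5. It was 0.11 with no TMM factors and -0.22 in batch 2 cells of like RNA content, those with 0.5 to 2 nuclear reads per ERCC read. Junb had 1270, 2010, 1113 and 872 CPM in high-share cells against 1057, 1478, 903 and 724 CPM in low-share cells (log2 fold 0.72, edgeR adjusted p = 0.158). Apoptosis genes were at -0.34, with 1 of 20 higher and 4 lower in 4 of 4 sets, p53 targets at -0.54, with 0 of 13 higher and 3 lower, and heat shock genes at -0.38, with 0 of 16 higher and 2 lower. The integrated stress response was at -0.83, with 2 of 10 higher and 2 lower, and mitophagy and dynamics at 0.08, with 2 of 17 higher and 5 lower. Reactive oxygen defence was at -0.39, with 1 of 20 higher and 4 lower, and its medians by set, -0.52, -0.67, -0.77 and -0.68, lay below those of all genes.

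**Figure D5:**
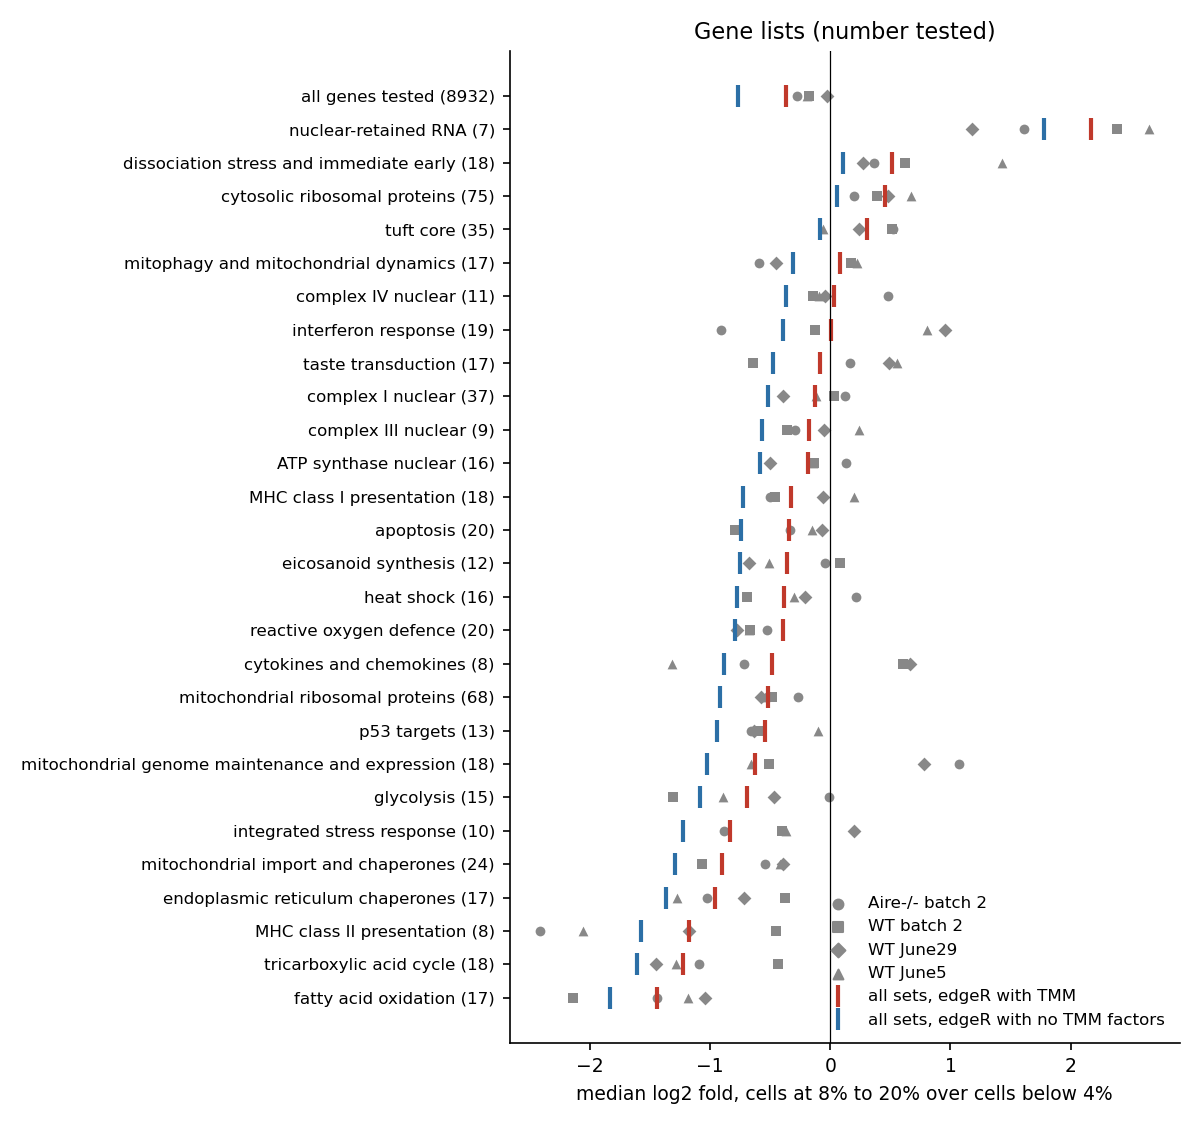
Median log2 fold of high-share over low-share cells for each gene list, per set (symbols), in the edgeR fit with TMM (red) and with no TMM factors (blue), with the number of genes tested. Nuclear-retained RNA stands at 2.17 and fatty acid oxidation at -1.44, while tuft core is at 0.31 in red and -0.09 in blue, so its side of 0 depends on the scaling.

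The longest transcripts stood above the other genes. With the genes divided into 5 equal classes by length of the longest transcript, the median log2 fold was -0.55 for 57 to 1799 bases, -0.87 for 1800 to 2813, -0.66 for 2814 to 3832, -0.16 for 3833 to 5226 and 0.50 for 5227 to 123179 bases. In the longest class 23.1% of genes were higher and 5.16% lower in 4 of 4 sets, against 13% and 18.1% of all genes. In the shortest class 15.6% were higher and 25.2% lower, and the second class had the lowest median. The median of the longest class was the highest of the 5 in each set, at 0.29 in Aire-/-, 0.76 in WT batch 2, 0.66 in June29 and 0.62 in June5. On other scales it was 0.10 with no TMM factors, -0.15 in the mean of per-cell log2 values and -1.79 per ERCC read, and it was the highest of the 5 on each. By annotated class, loci awaiting experimental evidence, of which Gm19817 is an example, had a median of 2.02 over 31 genes, with 14 higher and 0 lower in 4 of 4 sets.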

How the data were processed

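Single tuft cells of 4 sets were analysed from counts per gene that the authors deposited, whole numbers of reads with no normalization. STAR, featureCounts 1.5.3, Subread, R 3.4.0 and the build GRCm38 are named in the submitters' processing notes, while annotation and strand setting were not given in the sources used here. The deposited score table, whose values have no stated scale, was used only as a list of wells. The tables hold 48887 entries, of which 92 are ERCC and 37 are mitochondrial genes. Entries without a symbol numbered 446, held 0.0670% of reads and were left out.

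Cells of 1 set and class were summed without mitochondrial genes. Genes with at least 10 CPM in at least 4 of the 8 sums were tested with edgeR 4.0.16 in R 4.3.3 (quasi-likelihood test, TMM, set as block, Benjamini-Hochberg adjusted p of 0.05 or less). Alternatives used limma 3.58.1 and DESeq2 1.42.0. Per-cell values were computed with Python 3.11.15, numpy 2.4.6, pandas 2.3.3 and scipy 1.17.1, and figures drawn with matplotlib 3.10.9. The fit was also run on simulated counts with known folds, whose outcome is not reported here and supports no result. Levels in CPM carry no TMM factors, while log2 folds and directions by set do.

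The 12 genes per direction with the largest change were named if they passed, reached 20 CPM in the higher class and had 1 direction in every set, and places left were filled by the smallest p, said not to have passed. The 3 further genes that rose are named as well. Other genes named are members of the lists or were chosen after their values were seen, where said. The members and the lists were chosen with earlier results of these data known. Coordinates and sequences are those of GENCODE M21 on GRCm38. No doublet caller was run, since 1 cell was sorted per well. Well numbers shared between sets pair no samples. Reads carry no molecular identifiers, so intervals cover counting error only.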

Additional observations from a re-analysis of the deposited data

Results flagged for a closer look

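Of 81 values looked at by set, 8 stood apart, by separate criteria. The gap criterion (Dixon's, at 95%) marked 4 of them, and chance alone marks about 1 in 20 groups of 4 sets by it. It thus marked about as many as chance would. The other 4 were marked by opposite signs between batches, where the rate by chance was not worked out. A single set stood away from the other 3 in 4 values. The median log2 fold of the complex IV genes was 0.48 in the Aire-/- set. That of the p53 targets was -0.11 in June5. The class difference in median Tas2r genes per cell, with cells not thinned, was -1.5 in the Aire-/- set, and that in median Neat1 level was 3109 CPM in June5.

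In 4 values the batch 2 sets and the batch 1 sets lay on opposite sides of 0, and the difference between batches was not tested. For interferon response genes the median log2 fold was -0.91 in Aire-/- and -0.13 in WT batch 2, but 0.95 in June29 and 0.80 in June5, with a mean of 0.18. Complex I genes stood at 0.12 and 0.03 in batch 2 and at -0.39 and -0.11 in batch 1, with a mean of -0.089. B cell markers, of which 3 were tested, stood at -1.18 and -0.998 in batch 2 and at 0.18 and 2.10 in batch 1, with a mean of 0.027. The class difference in the share of ribosomal RNA among mitochondrial reads was -2.79 and -1.15 percentage points in batch 2 and 4.06 and 7.60 in batch 1, with a mean of 1.93.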

How the results depend on the processing

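In total 21 genes passed, of which 71.4% were higher in high-share cells, and this depended on most settings; the cause was not tested. Planned settings gave 28 genes with no TMM factors (39.3% higher), 34 with no filter (44.1% higher), 1580 by DESeq2 (39.2% higher), 3319 by limma on per-cell values (4.19% higher), 16 at equal depth, 16 for 10% to 20%, 15 against all cells below 8%, 11 without haematopoietic-marked cells and 19 in the authors' wells. With no replicate block it was 99 (59.6% higher), and wells are not paired between sets. All 21 passed by DESeq2, by limma and with no block. Leaving out a set gave 0 to 8 genes. Settings chosen after the data were seen gave 3785 per ERCC read (0.211% higher), 1 without pseudogenes and the rRNA entry, 0 within batch 1 (edgeR, 880 at an unadjusted p of 0.05 or less), 5 within batch 2, and 0 in batch 2 cells with 0.5 to 2 nuclear reads per ERCC read (413). Ptpn18 (-0.36), Neat1 (-0.065) and CT010467.1 (-0.058) turned lower per ERCC read. For 10% to 20%, the log2 difference in nuclear reads per ERCC read was -2.27, that in the share of the top 50 genes 18.9 points, and the class held 20.8% of wells. Against all cells below 8% the first was -1.69, and without haematopoietic-marked cells the second was 15.4 points, and 3.64 with pseudogenes and the rRNA entry left out, which hold most of it. Of 413 repeats of named genes that had passed, 214 still passed, 196 did not and 3 reversed. With 4 sets, small differences cannot be shown, and shallow wells limit rare genes.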

Other observations

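Reference wells of batch 2 held 50 sorted cells each. Mitochondrial genes took 1.81% of gene reads in the Aire-/- well and 6.66% in the WT well, with 100.2 and 36.7 non-mitochondrial reads per ERCC read. Markers of other thymic epithelial cells were measured by few genes. Over 5 genes of cortical epithelium the median log2 fold of high-share over low-share cells was -2.29, and over 3 genes of ciliated cells it was 1.02. Cell cycle genes stood at a median of -2.61 over 4 tested genes. None of these lists held a gene that passed by edgeR.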
